A study of Mus musculus with 10 samples.

Results

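The genes described here are those for the proteins of the cytosolic ribosome, with their paralogs, in splenic B cells of mice with and without liver fibrosis. They were chosen by symbol: protein-coding entries of the count table named Rpl or Rps followed by a digit, with Rpsa, Rplp0, Rplp1 and Rplp2, and without the ribosomal S6 kinases. This took 94 of the 54532 genes in the table. Of these, 77 are core genes, 31 for the small and 46 for the large subunit. The remaining entries are 8 paralogs, 8 entries with a -ps suffix that the table lists as protein-coding although the suffix marks a pseudogene, and Rps19bp1, which encodes a protein that binds RPS19 and is not itself part of the ribosome.

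The fibrosis group held 5 libraries of splenic B cells from mice that received carbon tetrachloride (CCl4), a solvent that injures hepatocytes, by intraperitoneal injection over 4 weeks. The control group held 5 libraries of splenic B cells from wildtype mice, with no word on whether they were injected with a vehicle. The strain, age and sex of the mice, the way the B cells were isolated and whether each library came from a separate animal are not given in the labels used here. The p-values therefore measure only the spread between libraries, part of which may be technical. The comparison asks how the expression of B cells differs between fibrotic and wildtype animals.

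A ribosome carries each core protein in about the same number, and cells adjust the supply of all of them together. Many of their mRNAs begin with a run of pyrimidines, the terminal oligopyrimidine or TOP motif, through which the kinase complex mTORC1 and the RNA-binding protein LARP1 control their translation. Resting B cells hold few ribosomes and make many more once they are activated. Several ribosomal proteins have a paralog from a separate gene, such as Rpl22l1 for Rpl22 and Rps27l for Rps27, whose protein can take the place of the parent in the ribosome or act outside it.

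The member with the largest rise, Rps27, and the only member called lower, Rps10, illustrate how the starts of these genes look. The windows below run from 30 bases before to 20 bases after the start of the gene in RefSeq (GRCm38.p6), and capitals mark the longest run of pyrimidines at the start. Rps27 lies at chr3:90213629-90213678 on the minus strand, Rps10 at chr17:27635225-27635274 on the minus strand, Rpl12 at chr2:32961682-32961731 on the plus strand, Rpl35 at chr2:39005112-39005161 on the minus strand and Rpl22 at chr4:152325696-152325745 on the plus strand.
Rps27: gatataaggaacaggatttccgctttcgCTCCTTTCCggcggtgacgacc
Rps10: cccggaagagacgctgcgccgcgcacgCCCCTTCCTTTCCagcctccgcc
Rpl12: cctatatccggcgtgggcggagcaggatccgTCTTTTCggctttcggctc
Rpl35: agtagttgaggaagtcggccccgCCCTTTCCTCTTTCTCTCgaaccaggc
Rpl22: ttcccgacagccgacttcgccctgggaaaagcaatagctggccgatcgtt

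Rps27, Rps10, Rpl12 and Rpl35 start within or beside such a run, and the Rpl22 window holds no marked run near the start of the gene. RefSeq promoters were matched by symbol for 66 of the 94 members, 57 of them core. A run of at least 6 pyrimidines between 5 bases before and 15 bases after the start was found in 26 of these 57 promoters (45.6%) and in 17.5% of the 27025 promoters of all genes. These shares depend on the RefSeq start, and the first listed promoter was used for the 10 members with more than 1. Runs outside these bases, such as that just upstream of the Rps25 start, were not counted. The letters CTTTTC or CTTTCC, searched on the sense strand over the same bases, stood in 11 of 57 (19.3%) against 1.34% of all promoters. Over the whole 300-base promoter and on both strands, CCGGAAG, the core of ETS factor sites, stood in 23 of 57 (40.4%) against 9.12%, and AAGATGGC, a YY1 motif, in 4 of 57 (7.02%) against 2.88%.

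Total counts ranged from 13439100 to 17954551 per library. Levels are given as CPM, the counts of a gene relative to all counts of its library, after scaling each library by TMM. Levels are ranked between genes only as the deposited FPKM, which also divides by exon length. Paralog counts are given as a percent of parent counts, without regard to length, to compare that ratio between the groups. The 2 groups were compared with the quasi-likelihood test of edgeR over the 14283 genes with enough counts, and a gene was called at a Benjamini-Hochberg adjusted p under 0.05. Fibrosis libraries 4 and 5 stood apart from fibrosis 1 to 3. The summed level of 8 macrophage markers was 3393 to 3694 CPM in fibrosis 4 and 5, 990 to 1082 CPM in fibrosis 1 to 3 and 1283 to 2344 CPM in the controls, and that of 8 neutrophil markers was 3210 to 4172, 339.7 to 1286 and 517 to 1415 CPM. The 8 B cell markers, among them Cd79a, were all detected and summed to 5929 to 6164 CPM in fibrosis 4 and 5, 7809 to 8397 CPM in fibrosis 1 to 3 and 5561 to 6360 CPM in the controls. Of these B cell markers 4 were called higher with all libraries, and all 8 without fibrosis 4 and 5 (median log2 fold change 0.52). No macrophage or neutrophil marker was called with all libraries. Without fibrosis 4 and 5, 7 macrophage markers were called lower (median -0.92), so markers of other cells differed between the groups in that fit too. Erythroid markers were lower in fibrosis (10 of 11 called, 266 to 989 CPM in sum against 2073 to 3406), platelet markers were higher (9 of 9 called, 261 to 1152 CPM against 147 to 183), and markers of proliferation were lower (10 of 10 called, 577 to 861 CPM against 1489 to 1901). Dendritic cell markers were higher (5 of 8 called with all libraries and 5 without fibrosis 4 and 5, 483 to 585 CPM in sum against 300 to 340.2). Of 9 T cell markers 1 was called higher (86.4 to 155 CPM in sum against 77.3 to 109) and of 6 NK cell markers 3 (62.8 to 122 CPM against 57.7 to 102), which without fibrosis 4 and 5 became 1 higher and 1 lower in each list. Plasma cell markers, 5 of 6 tested, had 1 called higher with and without fibrosis 4 and 5, Mzb1 (475 to 715 CPM in sum against 438 to 608). Of all tested genes 18.6% were called higher and 17.2% lower, and 18.4% and 18.8% without fibrosis 4 and 5. The T cell calls did not exceed these shares. No marker in these lists was at 0 in all libraries. The part of these other cells in the results below was not tested, counts of calls and the fold changes of most named genes are therefore also given without fibrosis 4 and 5, and in bulk samples fewer cells of a type and less RNA per cell cannot be told apart.

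Most ribosomal protein mRNAs were higher in fibrosis. Of the 77 core genes, all of them tested, 64 were called higher, 1 lower and 12 neither way, while 35.7% of all tested genes were called, 18.6% higher and 17.2% lower. Their median log2 fold change was 0.63 (range -1.18 to 1.39), against 0.05 over all tested genes. In 56 core genes all 5 fibrosis libraries lay above all 5 controls, which held for 11.4% of all tested genes, and in 1 core gene all controls lay above, which held for 14%. Core ribosomal protein genes took 11.2%, 10.6%, 10.4%, 14.7% and 14.3% of all counts in fibrosis 1 to 5 and 9.33%, 8.79%, 8.19%, 9.33% and 8.43% in controls 1 to 5. Every fibrosis library was thus above every control, with fibrosis 4 and 5 far above the rest.

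**Figure D1:**
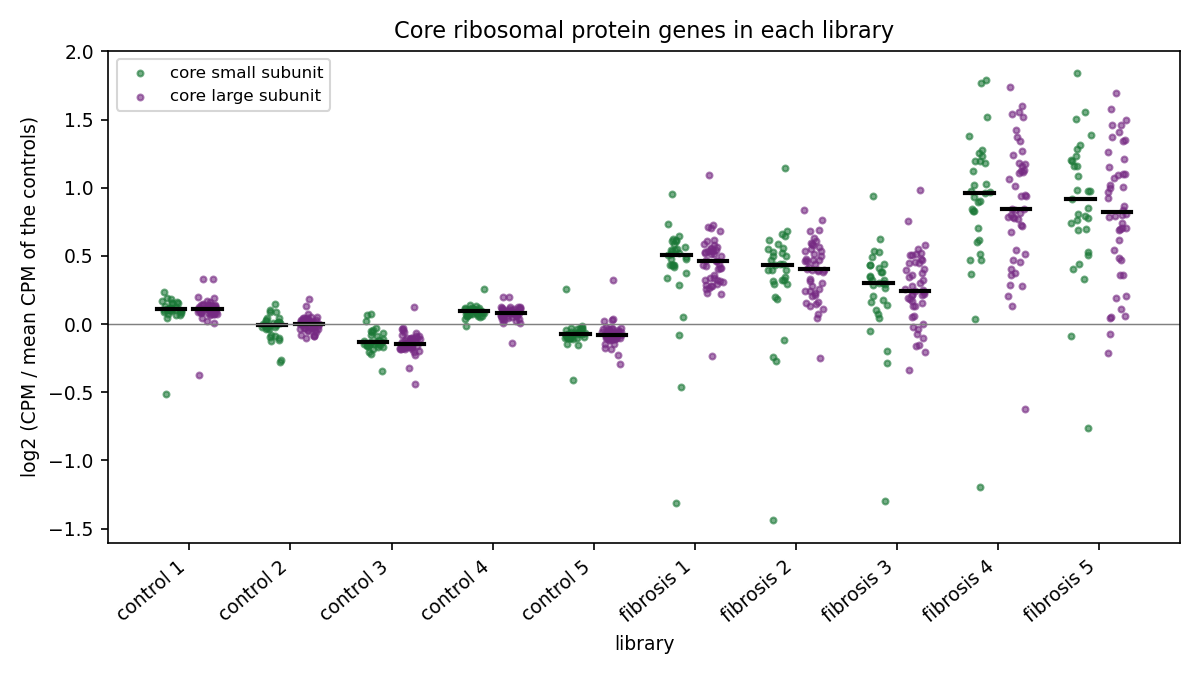
Level of each of the 77 core genes in each library, as log2 of its CPM over the mean CPM of the 5 controls. Points are genes, small subunit green and large subunit purple, and bars are medians. The medians of the small subunit were 0.30 to 0.50 in fibrosis 1 to 3, 0.96 and 0.92 in fibrosis 4 and 5, and between -0.13 and 0.11 in the controls.

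The rise was present in all 5 fibrosis libraries and was larger in fibrosis 4 and 5. Mean CPM was higher in fibrosis 4 and 5 than in fibrosis 1 to 3 for 74 of the 77 core genes, with a median fold of 1.43. For 63 core genes the highest 2 of the 10 libraries were fibrosis 4 and 5. With these libraries left out, 72 core genes still had a higher mean in fibrosis 1 to 3 than in the controls (median fold 1.30), 59 were called higher and 2 lower, and the median log2 fold change was 0.39. In that fit 37.2% of 14607 genes were called, 18.4% higher and 18.8% lower, and the median of the genes tested in the main comparison was 0.03. Genes for other products at a mean of 100 CPM or more did not share the shift: of 2130 such genes 39.9% were called with all libraries, 20.9% higher and 19% lower. The counts of 74, 63 and 72 core genes were not taken over all tested genes. Core genes also moved together among the controls: 75, 38, 4, 75 and 5 of the 77 lay above the control mean in controls 1 to 5.

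Rps27, a small-subunit protein with a zinc finger, had the largest fold change of the core genes (chr3:90212522-90213651, minus strand, GRCm38). Its level was 1594, 1821, 1581, 2806 and 2946 CPM in fibrosis 1 to 5 and 902, 756, 805, 866 and 785 CPM in controls 1 to 5. The groups did not overlap, and the lowest fibrosis library was well above the highest control. The log2 fold change was 1.39 ± 0.18 (SE; edgeR adjusted p = 0.000103) and 1.03 ± 0.08 without fibrosis 4 and 5 (adjusted p = 9.24e-06). Coding sequence shared with other genes, described below for its paralogs, makes the split of reads between Rps27 and its copies uncertain.

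The next largest fold changes in the small subunit were those of Rps14, Rps15a, Rps27a and Rps24, of which Rps27a was not called. Rps14, which is placed in the platform of the subunit, read 2625, 2536, 2062, 4524 and 4488 CPM in fibrosis and 1805, 1630, 1410, 1634 and 1422 CPM in controls. The groups did not overlap, with a log2 fold change of 1.04 ± 0.21 (edgeR adjusted p = 0.00195; 0.62 without fibrosis 4 and 5). Rps15a rose by 0.99 ± 0.17 (adjusted p = 0.000619) and Rps24, a gene mutated in Diamond-Blackfan anaemia, by 0.90 ± 0.16 (adjusted p = 0.000932), both on the log2 scale. These values were 0.65 and 0.58 without fibrosis 4 and 5, and both genes were called.

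Rps27a, whose product is a fusion of ubiquitin with a small-subunit protein, had the highest fold of fibrosis 4 and 5 over fibrosis 1 to 3 among the core genes (3.24). It read 462, 528, 897, 2204 and 1873 CPM in fibrosis and 446, 634, 671, 675 and 760.2 CPM in controls. Fibrosis 1 and 2 lay among the controls, fibrosis 3 above them, and fibrosis 4 and 5 far above. Its log2 fold change of 0.90 ± 0.41 was not called (edgeR adjusted p = 0.107), it was -0.01 without fibrosis 4 and 5, and it was called when fibrosis 1 alone was left out (1.11, adjusted p = 0.0311).

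In the large subunit the largest fold changes were those of Rpl21, Rpl30, Rpl17, Rpl36a and Rpl38. Rpl30, which also regulates the splicing of its own transcript in yeast, lies at chr15:34440505-34443640 on the minus strand. It read 877, 912, 908, 1562 and 1601 CPM in fibrosis and 570.4, 542, 493, 568 and 511 CPM in controls. Fibrosis 1 to 3 were close together and all above the controls, and fibrosis 4 and 5 were higher again. The log2 fold change was 1.13 ± 0.18 (edgeR adjusted p = 0.000421), and 0.75 ± 0.07 without fibrosis 4 and 5 (adjusted p = 1.8e-05).

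Rpl21 rose by 1.15 ± 0.27 (edgeR adjusted p = 0.00636), from 199.7 ± 40.1 CPM (SD, n = 5) in controls to 445 ± 196 CPM in fibrosis, and its coding sequence shared 50-base stretches with 82 other genes. Rpl17 rose by 1.13 ± 0.21 (adjusted p = 0.00122), Rpl36a by 1.02 ± 0.21 (adjusted p = 0.00279) and Rpl38, which is known for its part in translating homeobox mRNAs, by 1.00 ± 0.21 (adjusted p = 0.00263). All 4 had every fibrosis library above every control. Without fibrosis 4 and 5 their log2 fold changes were 0.61, 0.85, 0.56 and 0.55, and all remained called.

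**Figure D2:**
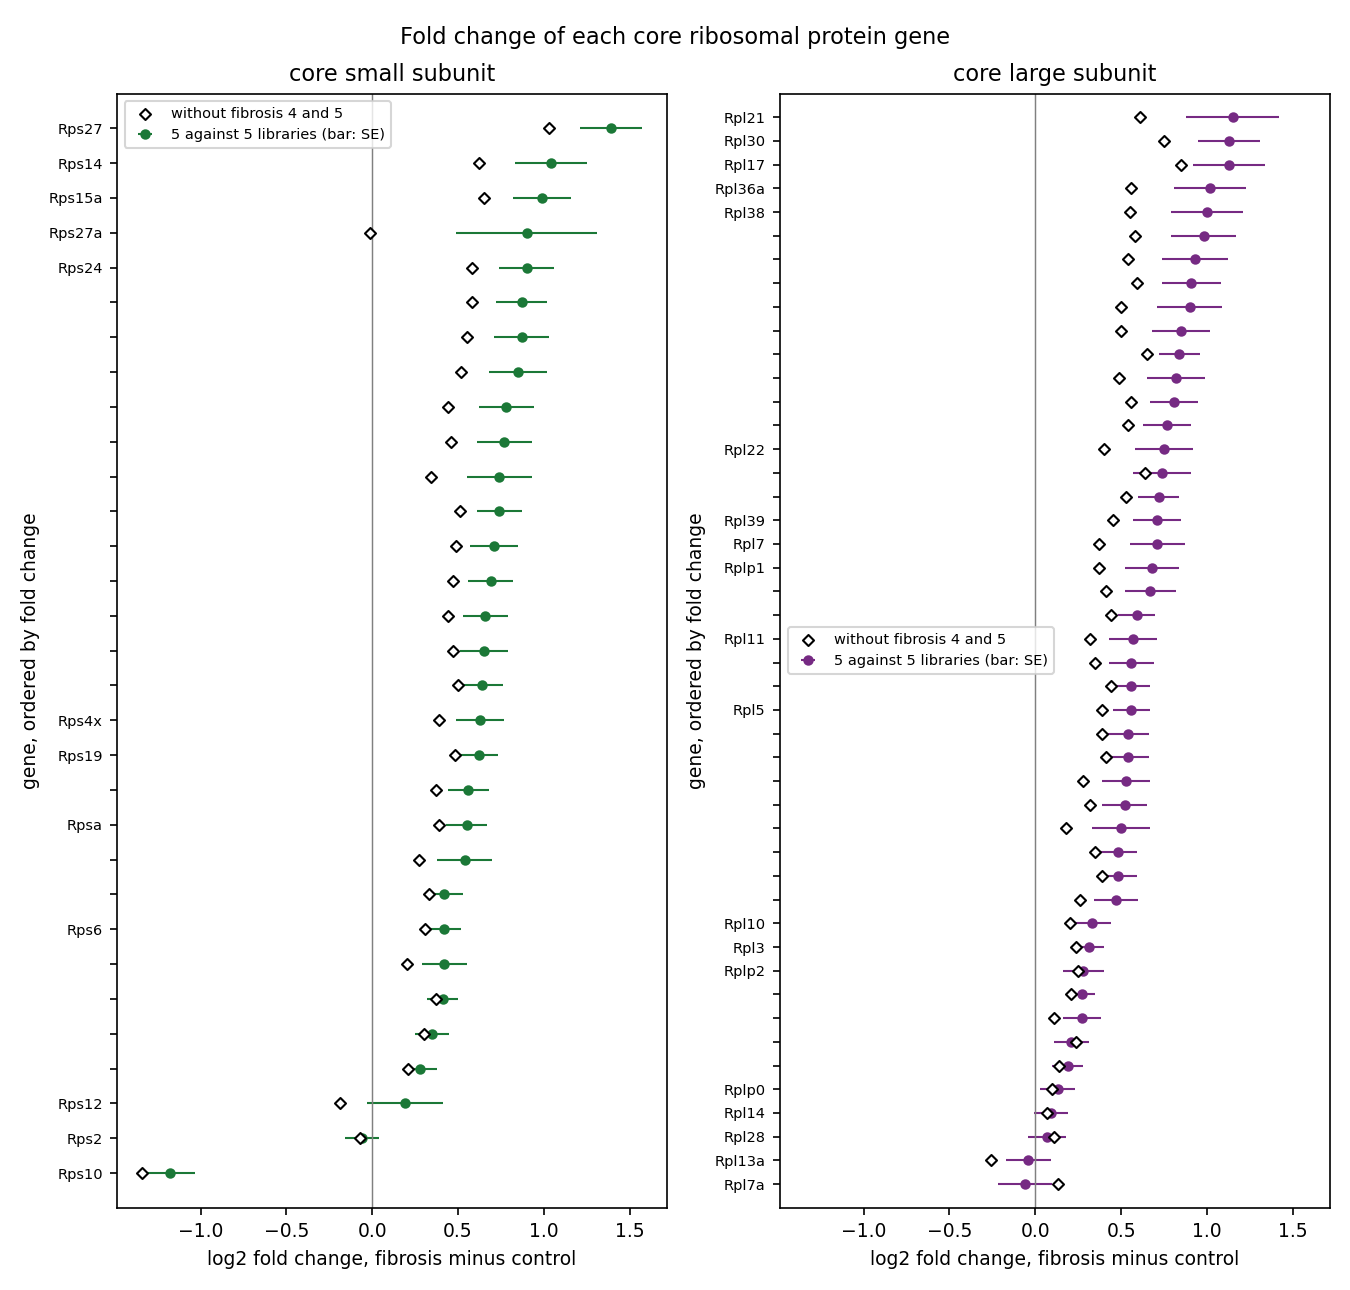
Log2 fold change (fibrosis minus control) of each core gene by subunit, ordered by size, with labels on the genes chosen by the naming rule and described in the text. Filled points with bars are the estimate ± SE from 5 against 5 libraries, and open diamonds are the estimate without fibrosis 4 and 5. Rps27 is highest at 1.39 and Rps10 lowest at -1.18. Most diamonds lie to the left of their point but right of 0.

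Rps10 (chr17:27630418-27636669, minus strand) was the only member called lower with all libraries. It read 5.93, 5.42, 5.98, 6.42 and 8.65 CPM in fibrosis and 16.7, 12.2, 14.9, 15.7 and 14 CPM in controls, so all controls lay above all fibrosis libraries. The log2 fold change was -1.18 ± 0.15 (edgeR adjusted p = 8.05e-05) and -1.34 without fibrosis 4 and 5. This entry was also the lowest core gene per length, at 6.35 ± 0.74 FPKM (SD, n = 5) in controls, where the median core gene stood at 534 FPKM. Of its exon bases 20.6% lie on the same strand in the read-through gene RPS10-NUDT3, which had no count in any library, and 92.4% of its 50-base coding windows also occur in another gene. The labels do not give how the authors' counting treated reads shared between genes, so the level and the fold change of Rps10 are uncertain.

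A same-strand overlap of this kind, with a read-through or predicted gene that had 0 counts in all libraries, also covered 29.4% of the exon bases of Rpl13a, 47% of Rpl24 and 24.5% of the paralog Rpl36al. These entries were low too: Rpl24 stood at 6.48 FPKM and Rpl13a at 31.3 FPKM in controls, and with Rps10 and Rpl21 (58.7 FPKM) they were the 4 core genes under 100 FPKM. Rpl24 was called higher (0.74 ± 0.17, edgeR adjusted p = 0.00445; 0.64 without fibrosis 4 and 5). Rpl13a was not called with all libraries (-0.04 ± 0.13, adjusted p = 0.859) and was called lower without fibrosis 4 and 5 (-0.26, adjusted p = 0.0156). Their values share the uncertainty of Rps10.

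The core genes that were not called, 12 in all, were Rps2, Rps12 and Rps27a in the small subunit, and Rpl6, Rpl7a, Rpl8, Rpl13a, Rpl14, Rpl28, Rpl29, Rplp0 and Rplp2 in the large. Rps2, at the mRNA entry of the small subunit, read 2320, 2067, 1949, 2293 and 2105 CPM in fibrosis and 2493, 2377, 1938, 2218 and 2167 CPM in controls. The groups overlapped throughout (-0.06 ± 0.10, edgeR adjusted p = 0.66). Rpl7a read 368, 324, 260.0, 189.6 and 251 CPM in fibrosis and 295, 331, 317, 265 and 248 CPM in controls, and unlike most members it was lower in fibrosis 4 and 5 than in fibrosis 1 to 3, with a fold of 0.695. Rpl28 (0.07 ± 0.11), Rpl14 (0.09 ± 0.10) and Rps12 (0.19 ± 0.22) overlapped between groups as well. The log2 fold changes of Rps2, Rpl7a, Rpl28, Rpl14 and Rps12 without fibrosis 4 and 5 were -0.07, 0.13, 0.11, 0.07 and -0.19, and none was called.

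By subunit, 27 of 31 small-subunit genes were called higher and 1 lower, with a median log2 fold change of 0.65, and 37 of 46 large-subunit genes were called higher and none lower, with a median of 0.57. Without fibrosis 4 and 5 the medians were 0.44 and 0.39, with 24 higher and 1 lower in the small subunit and 35 higher and 1 lower in the large. The ratio of summed small-subunit to large-subunit counts was 0.815, 0.827, 0.838, 0.877 and 0.898 in fibrosis 1 to 5 and 0.794, 0.784, 0.799, 0.794 and 0.789 in controls 1 to 5. The ratio was above every control in every fibrosis library, with means of 0.851 ± 0.035 and 0.792 ± 0.0057 (SD, n = 5), and its mean in fibrosis 1 to 3 was 0.827 ± 0.012 (SD, n = 3). As a sum over members it is described and not tested.

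**Figure D3:**
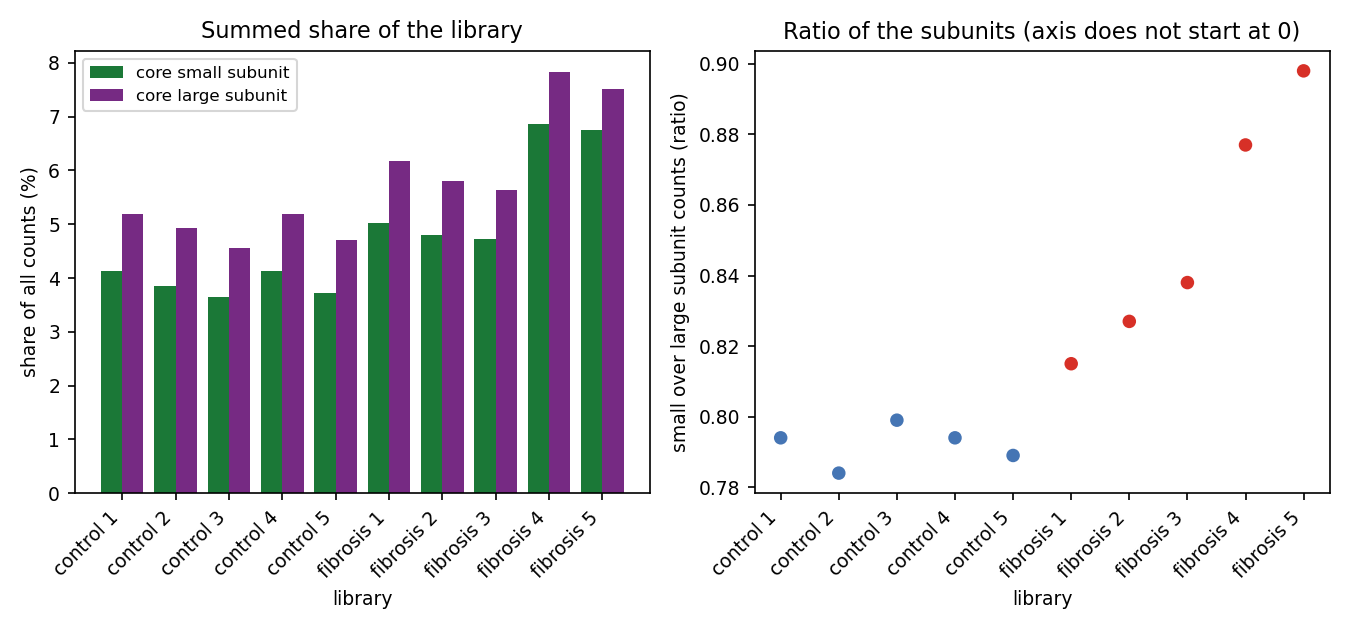
Left, the share of all counts in each library (%) that fell on core small-subunit (green) and large-subunit (purple) genes. Right, the ratio of the former to the latter, with controls in blue and fibrosis in red on an axis that does not start at 0. The small-subunit share was 3.64% to 4.13% in controls and 4.72% to 6.87% in fibrosis, and the ratio was 0.784 to 0.799 and 0.815 to 0.898.

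In the small subunit Rps6, the substrate of the S6 kinases, read 2110, 1912, 1748, 2395 and 2257 CPM in fibrosis and 1685, 1537, 1410, 1648 and 1534 CPM in controls. These ranges did not overlap, although the lowest fibrosis library was close to the highest control (0.42 ± 0.10, edgeR adjusted p = 0.00705). Rpsa, also known as the laminin receptor, rose by 0.55 ± 0.12 (adjusted p = 0.00323), Rps4x by 0.63 ± 0.14 (adjusted p = 0.00318) and Rps19, the gene most often mutated in Diamond-Blackfan anaemia, by 0.62 ± 0.11 (adjusted p = 0.000994). Of 12 genes whose human counterparts are mutated in that anaemia, 11 were called higher and Rps10 lower, beside 64 and 1 of the 77 core genes. The shares over all tested genes were 18.6% higher and 17.2% lower. Without fibrosis 4 and 5 there were 10 higher and 1 lower of the 12, as Rps26 was no longer called (0.20, adjusted p = 0.0799). Rps6, Rpsa, Rps4x and Rps19 were called in that fit, at 0.31, 0.39, 0.39 and 0.48.

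Of 4 large-subunit genes for the stalk that recruits translation factors, and its base, 2 were called higher (median 0.48). Over the core genes this was 64 of 77, and over all tested genes 18.6%. Rplp1 (345 coding bases), an acidic stalk protein and the most abundant core mRNA per length at 4600 ± 396 FPKM in controls, read 3159, 3024, 2683, 5013 and 4588 CPM in fibrosis and 2443, 2315, 2034, 2492 and 2206 CPM in controls. It rose by 0.68 ± 0.16 (edgeR adjusted p = 0.00557). Its partner Rplp2 (0.28 ± 0.12, adjusted p = 0.073) and their anchor Rplp0 (0.13 ± 0.10, adjusted p = 0.356) were not called, and Rpl12, at the base of the stalk, rose by 0.72 ± 0.12 (adjusted p = 0.000596). Without fibrosis 4 and 5 Rplp1 (0.37) and Rpl12 (0.53) were called, and Rplp2 (0.25) and Rplp0 (0.10) were not. Whether these changes differ from one another was not tested.

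All 8 genes listed for the exit tunnel, through which the new chain leaves, were called higher (median 0.84). The share called higher was 64 of 77 over the core genes and 18.6% over all tested genes. Among the 8 were Rpl23a (0.91 ± 0.17, edgeR adjusted p = 0.00105), Rpl39 (0.71 ± 0.14, adjusted p = 0.00206) and Rpl4 (0.27 ± 0.08, adjusted p = 0.0213). Rpl5 and Rpl11, which with 5S rRNA form the particle that binds the p53 regulator MDM2, rose by 0.56 ± 0.11 (adjusted p = 0.00178) and 0.57 ± 0.14 (adjusted p = 0.00657). Rpl3, near the peptidyl transferase centre, rose by 0.31 ± 0.09 (adjusted p = 0.0172). All 8 tunnel genes were called higher without fibrosis 4 and 5 (median 0.49), and Rpl5, Rpl11 and Rpl3 were called at 0.39, 0.32 and 0.24. Rpl10, which joins the subunit last, was called at 0.33 ± 0.11 (adjusted p = 0.0279) but not without fibrosis 4 and 5 (0.20, adjusted p = 0.0792).

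Fold change was not ordered by the exon length listed in the table but was ordered by coding length. Across the 77 core genes, which share libraries and are not independent, Spearman's rho of the log2 fold change was -0.05 with listed exon length and -0.45 with the coding length of the GENCODE vM21 transcript (-0.29 in the small and -0.53 in the large subunit). Without fibrosis 4 and 5 these were -0.04 and -0.38. The 26 genes with coding sequences of 78 to 408 bases had a median of 0.76 and 24 were called higher. The next 26, up to 579 bases, had a median of 0.67 with 22 higher, and the 25 longest, of 585 to 1260 bases, had a median of 0.42 with 18 higher. Rpl41 shows that the order is loose: with 78 coding bases it was the shortest and rose by 0.50 ± 0.17 (edgeR adjusted p = 0.0313), which was not called without fibrosis 4 and 5 (0.18, adjusted p = 0.138).

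**Figure D4:**
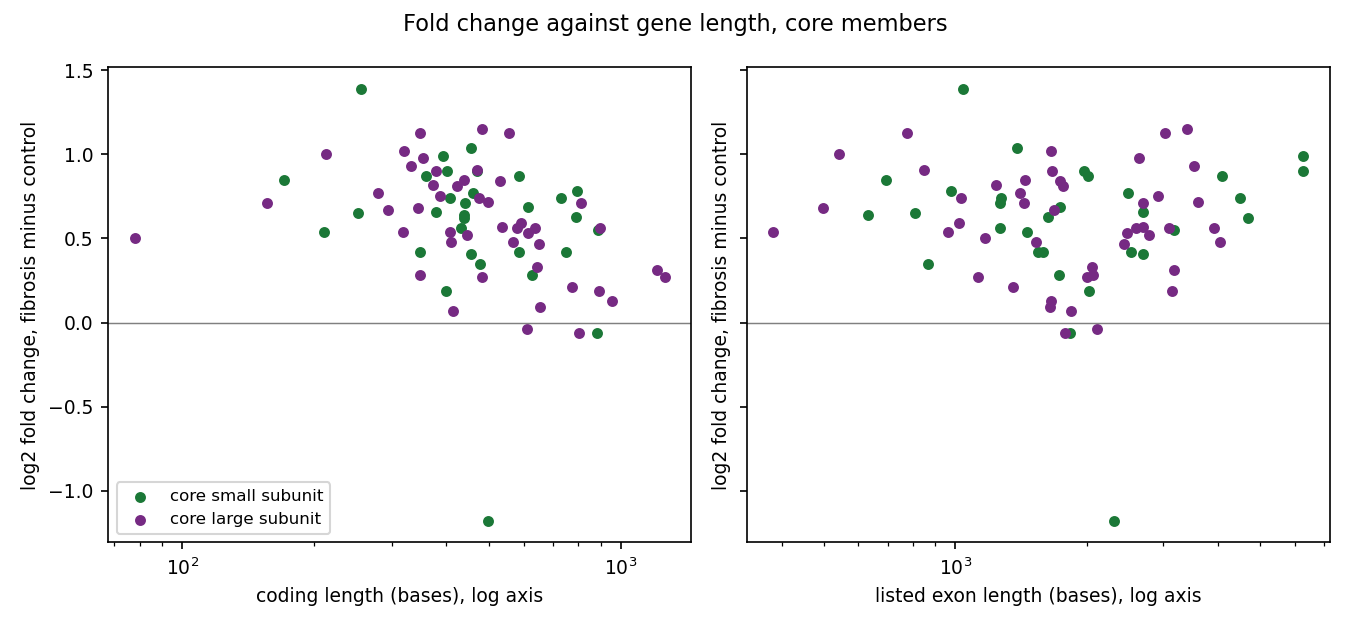
Log2 fold change (fibrosis minus control) of the 77 core genes against the length of the coding sequence (left) and the exon length listed in the table (right), both in bases on a log axis. Small-subunit genes are green and large-subunit genes purple. Values fall with coding length (rho -0.45) and show no order with listed exon length (rho -0.05).

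By listed exon length, the 26 shortest genes (383 to 1464 bases) had a median of 0.71, the middle 26 a median of 0.42 and the 25 longest (2491 to 6270 bases) a median of 0.66, with 24, 16 and 24 called higher. Other tested genes in the same 3 length ranges had medians of 0.16, 0.05 and 0.01, and 19.4%, 18.5% and 17.4% of them were called higher. The GC content of the coding sequence, which was unrelated to coding length (rho 0.07), had a rho of -0.44 with the log2 fold change, or -0.30 without fibrosis 4 and 5. Level per length had none (rho -0.04 with mean FPKM).

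Ribosomal protein genes have many processed pseudogenes, so some of their reads could be placed in more than 1 gene. How many reads this concerned was not measured. At least one 50-base coding window was shared with another gene in 76 of 77 core genes. The 10 core genes with at most 50% of windows shared had a median of 0.59 with 9 called higher, and the other 67 a median of 0.63 with 55 higher and 1 lower. The 399 table entries described as ribosomal protein pseudogenes took 0.411% to 0.543% of counts in fibrosis and 0.319% to 0.386% in controls.

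Promoter letters were described beside these changes with no test. The 11 core genes with CTTTTC or CTTTCC at the start, Rps10 and Rps27 among them, had a median of 0.52, with 7 called higher and 1 lower, against 0.60 and 40 higher for the other 46. The 23 with CCGGAAG had a median of 0.59 and the other 34 a median of 0.56. The 4 with AAGATGGC, among them Rps27, had a median of 0.96 against 0.56 for the other 53.

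Of the 8 paralogs, 5 were tested: 2 were called higher and none lower (median 0.19), and without fibrosis 4 and 5 they were 1 higher and 1 lower. Over all tested genes 18.6% were called higher and 17.2% lower, and 18.4% and 18.8% without fibrosis 4 and 5. The other 3 paralogs were at or near the limit of detection. Rpl39l, a germ-cell form of Rpl39, had 39 counts over the fibrosis libraries and 36 over the controls, and Rpl3l, a muscle form of Rpl3, had 25 and 28. Rpl10l, an autosomal copy of the X-linked Rpl10 that is used in the testis, had 0 counts in all 10 libraries, which allows up to 3 counts or 0.16 to 0.238 CPM in a library, counting error only.

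Rpl22l1 (chr3:28805436-28807424, plus strand), the paralog of Rpl22, read 83, 85.4, 90.5, 170.1 and 161 CPM in fibrosis and 76.6, 67.6, 65.5, 65.2 and 66.5 CPM in controls. All fibrosis libraries were above all controls, and the fold of fibrosis 4 and 5 over fibrosis 1 to 3 was 1.92. It rose by 0.79 ± 0.20 (edgeR adjusted p = 0.00927), and by 0.35 without fibrosis 4 and 5 (adjusted p = 0.00379). Rpl22, whose protein is needed for T cell development and represses Rpl22l1, read 637, 634, 593, 1075 and 1056 CPM in fibrosis and 514, 456, 449, 494 and 462 CPM in controls. It rose as well (0.75 ± 0.17, adjusted p = 0.00413; 0.40 without fibrosis 4 and 5), again with no overlap.

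The counts of Rpl22l1 were 14.6% ± 1.24 of those of Rpl22 in fibrosis and 14.4% ± 0.693 in controls (SD, n = 5). The log2 ratio differed by 0.02 (two-sided exact permutation p = 0.81, adjusted p = 0.81 over the 5 pairs compared), and under leaving out single libraries it moved between -0.01 and 0.06. The smallest p this test can give is 0.00794.

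Rps27 has a near relative in Rps27l, which responds to p53, and a copy in Rps27rt, a retrogene. The first 90 coding bases of the 3 genes, from GENCODE vM21 transcripts, are shown because they decide how reads can be assigned. Capitals mark bases that differ from Rps27.
Rps27: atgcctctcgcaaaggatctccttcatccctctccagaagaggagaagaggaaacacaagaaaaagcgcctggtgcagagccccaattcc
Rps27l: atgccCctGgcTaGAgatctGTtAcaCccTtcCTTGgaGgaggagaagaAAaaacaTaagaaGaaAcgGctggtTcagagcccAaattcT
Rps27rt: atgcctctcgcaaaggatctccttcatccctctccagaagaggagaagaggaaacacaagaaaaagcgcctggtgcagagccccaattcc

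Over all 255 coding bases Rps27rt had 0 mismatches with Rps27, and Rps27l had 61 (76.1% identity) with no 50-base window in common. Reads that lie within the coding sequence therefore cannot separate Rps27 from Rps27rt, and sequence outside it was not compared. Stretches of 50 coding bases do separate Rps27l from both. However, other genes shared 49% of the 50-base coding windows of Rps27l, so its level and its ratio to Rps27 are uncertain too. Rps27rt (chr9:114982366-114982739, minus strand) read 424, 251.8, 224, 340.3 and 286 CPM in fibrosis and 214, 207, 125, 207 and 110.2 CPM in controls. Every fibrosis library was above every control, by a small margin in fibrosis 3. It was called higher (0.82 ± 0.22, edgeR adjusted p = 0.0116) but not without fibrosis 4 and 5 (0.81, adjusted p = 0.0529).

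Rps27l (chr9:66946086-66949516, plus strand) read 69.5, 58.6, 57.4, 146 and 121 CPM in fibrosis and 111, 95.4, 81.2, 97.8 and 94.9 CPM in controls. Fibrosis 1 to 3 were below every control and fibrosis 4 and 5 above every control. The log2 fold change was -0.09 ± 0.25 with all libraries (edgeR adjusted p = 0.818) and -0.62 ± 0.11 without fibrosis 4 and 5 (adjusted p = 0.000662). Relative to Rps27, Rps27l was lower in every fibrosis library: its counts were 4.36%, 3.22%, 3.63%, 5.22% and 4.09% of those of Rps27 in fibrosis 1 to 5 and 12.3%, 12.6%, 10.1%, 11.3% and 12.1% in controls 1 to 5. The groups were far apart, with a difference in the log2 ratio of -1.52 (two-sided exact permutation p = 0.00794, adjusted p = 0.0198 over the 5 pairs). It was -1.65 without fibrosis 4 and 5 (adjusted p = 0.0446), and -1.45 with the counts of Rps27 and Rps27rt summed as the parent, an alternative added after the data were seen.

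Rpl7l1, a factor in the assembly of the large subunit, did not follow Rpl7. It read 129, 124, 104, 139.5 and 144 CPM in fibrosis and 138, 131, 125, 133 and 128 CPM in controls, with the groups overlapping (-0.03 ± 0.09, edgeR adjusted p = 0.807). Rpl7 read 1647, 1708, 1674, 2812 and 2789 CPM in fibrosis and 1385, 1233, 1272, 1399 and 1220 CPM in controls, with no overlap (0.71 ± 0.16, adjusted p = 0.0047; 0.37 without fibrosis 4 and 5). Rpl7l1 counts were 6.28% ± 1.26 of those of Rpl7 in fibrosis and 10.1% ± 0.463 in controls (SD, n = 5), a difference in the log2 ratio of -0.70 (exact permutation adjusted p = 0.0198), and -0.51 without fibrosis 4 and 5 (adjusted p = 0.0446). Other genes shared 22.3% of the 50-base coding windows of Rpl7l1 and 77.6% of those of Rpl7, which leaves this ratio uncertain as well.

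Rpl36al, a copy of the X-linked Rpl36a, was detected at 1.23 to 3.64 CPM in fibrosis and 1.21 to 2.37 CPM in controls (0.19 ± 0.30, edgeR adjusted p = 0.666). Its ratio to Rpl36a differed by -0.82 on the log2 scale (exact permutation adjusted p = 0.0265), and this call was lost without fibrosis 4 and 5 (-0.62, adjusted p = 0.0893) and in 8 of the 10 fits that left out 1 library. The ratio of Rps27rt to Rps27 did not pass the test (-0.49, adjusted p = 0.188). Of the 5 pairs, 3 thus differed in ratio and all of these fell, with a rise in the parent's level.

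**Figure D5:**
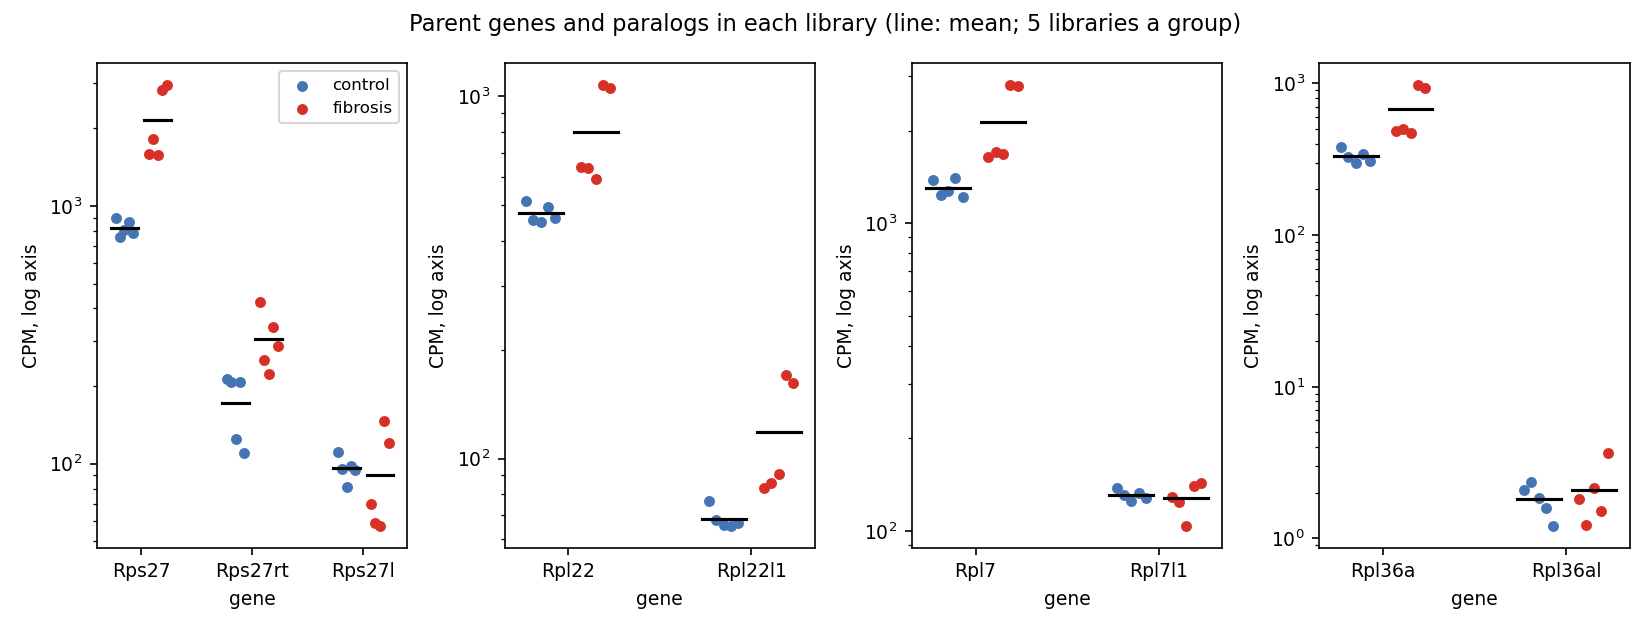
CPM (log axis) of parent genes and their tested paralogs in each library, controls in blue and fibrosis in red, with the mean as a line. Rps27, Rpl22, Rpl7 and Rpl36a are higher in every fibrosis library than in any control. Of the paralogs, Rps27rt and Rpl22l1 also separate, Rpl7l1 and Rpl36al overlap, and Rps27l has fibrosis libraries on both sides of the controls.

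All 5 tested -ps entries were called higher, with a median of 0.39: Rpl36a-ps1 (1.30 ± 0.26, edgeR adjusted p = 0.0018), Rpl10-ps3 (0.62 ± 0.15), Rps12-ps3 (0.39 ± 0.14), Rpl27-ps3 (0.38 ± 0.12) and Rpl9-ps6 (0.35 ± 0.13). Without fibrosis 4 and 5, Rpl36a-ps1 and Rpl10-ps3 remained called. The share of all tested genes called higher was 18.6% with all libraries and 18.4% without fibrosis 4 and 5. Rpl10-ps3 shared 100% of its 50-base coding windows with other genes, and the values of all these entries are uncertain because they are near copies of their parent genes. Rps12-ps3 was the most abundant of them per length, at 888 ± 168 FPKM in fibrosis against 689 ± 77.3 FPKM in controls (SD, n = 5). The other 3 (Rpl9-ps1, Rpl13a-ps1 and Rpl36-ps4) had at most 1 count in all, and Rps19bp1 was not called (-0.20 ± 0.12, adjusted p = 0.205). Over all 94 members, 88 were tested, 71 were called higher, 1 lower and 16 neither way.

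Of 4 listed ribosome components that the symbols leave out, 3 were found by name in the count table. All 3 were called higher (median 0.43), and 2 of them without fibrosis 4 and 5. The shares called higher over all tested genes were 18.6% and 18.4% in these fits. Fau, which encodes RPS30 fused to a ubiquitin-like protein, read 2406, 2219, 1806, 2592 and 2375 CPM in fibrosis and 1521, 1425, 1296, 1579 and 1313 CPM in controls (0.68 ± 0.11, edgeR adjusted p = 0.000466). Rack1, a scaffold on the small subunit, rose by 0.43 ± 0.10 (adjusted p = 0.00409). They were called at 0.60 and 0.34 without fibrosis 4 and 5.

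Of 16 other mRNAs known to carry a TOP motif, such as those of elongation factors, 5 were called higher and none lower, with a median of 0.21, beside 18.6% and 17.2% of all tested genes. There were, without fibrosis 4 and 5, 6 higher and none lower, with Npm1 no longer called (0.19, adjusted p = 0.0971) and Eef1a1 (0.25, adjusted p = 0.0128) and Eef2 (0.32, adjusted p = 0.0167) called. Tpt1, which encodes the translationally controlled tumour protein, rose by 0.87 ± 0.14 (edgeR adjusted p = 0.000458), the initiation factor subunit Eif3e by 0.64 ± 0.12 (adjusted p = 0.00145) and the histone chaperone Nap1l1 by 0.44 ± 0.09 (adjusted p = 0.00253). Of 13 genes of mTORC1 and LARP1 control none was called higher and 6 lower (median -0.21), beside 17.2% of all tested genes called lower. The 3 with the smallest p were Rps6kb2, an S6 kinase (-0.44 ± 0.09, adjusted p = 0.00263), Rptor, the substrate-binding subunit (-0.38 ± 0.10, adjusted p = 0.00797), and Mlst8 (-0.35 ± 0.09, adjusted p = 0.00815). The largest called change was that of Eif4ebp1, a translation repressor that mTORC1 inactivates (-0.56, adjusted p = 0.0182; -0.73 without fibrosis 4 and 5). In the fit without fibrosis 4 and 5 only 4 were called lower (median -0.18), as Larp1 (-0.37 with all libraries) went to -0.19 (adjusted p = 0.0914) and Tsc2 (-0.42) to -0.18 (adjusted p = 0.124).

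Genes that handle new ribosomal proteins were also lower where they were called. Of 11 tested chaperones and importers 5 were called lower and none higher (median -0.16), and 6 lower without fibrosis 4 and 5 (median -0.20), beside 17.2% of all tested genes called lower with all libraries and 18.8% without these 2. Among them were the importins Ipo9 (-0.65 ± 0.11, edgeR adjusted p = 0.000451) and Ipo5 (-0.61 ± 0.08, adjusted p = 0.000142) and the assembly factor Rrs1 (-0.57 ± 0.09, adjusted p = 0.000419). Of 5 enzymes that add or remove ubiquitin on ribosomes 2 were called lower (1 without fibrosis 4 and 5), namely the deubiquitinase Usp10 (-0.63 ± 0.11, adjusted p = 0.000611) and the collision sensor Zfp598 (-0.32 ± 0.10, adjusted p = 0.0223), the latter not without fibrosis 4 and 5 (-0.18, adjusted p = 0.0809). Rnf10 was not called (-0.18 ± 0.08, adjusted p = 0.116).

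Ifrd2, which occupies idle ribosomes in differentiating erythroid cells, had the largest change of the 4 storage factors. It read 98.0, 67.8, 72.2, 89.8 and 46.1 CPM in fibrosis and 228, 221, 194, 206 and 250.0 CPM in controls, with every control far above every fibrosis library. The log2 fold change was -1.56 ± 0.17 (edgeR adjusted p = 3.88e-05; -1.46 without fibrosis 4 and 5), beside the lower erythroid markers given above, whose part in it was not tested. Habp4, which binds inactive ribosomes, was higher (0.39 ± 0.10, adjusted p = 0.00895), and Ccdc124 was not called (-0.14 ± 0.12, adjusted p = 0.386) except without fibrosis 4 and 5 (-0.30, adjusted p = 0.0423).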

How the data were processed

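RNA sequencing of splenic B cells gave 5 fibrosis and 5 control libraries, with groups taken from the labelled disease state. Per the labels' protocols, mRNA was selected with poly-T beads, fragmented, primed with random hexamers and size-selected at 370 to 420 bp. The authors deposited raw read counts (whole numbers) and FPKM per gene. Each deposited FPKM equalled the count per listed exon length and library total times a factor per library (0.935 to 1.07), within 0.1% for genes with at least 100 counts. Per the submitters' processing notes the genome build was GRCm38, also called mm10. No label or note names the aligner, the counter or its use of strand. All sample columns were used.

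With edgeR 4.0.16 in R 4.3.3, filterByExpr left 14283 genes, and the test compared the groups by quasi-likelihood with TMM scaling, no covariate and Benjamini-Hochberg adjustment over all genes tested. The biological coefficient of variation was 0.183. The standard error is the absolute log2 fold change over the square root of F. Paralog and parent counts were compared as log2 ratios (0.5 added) by exact permutation, adjusted over 5 pairs. No 2 libraries of a group were alike enough to be 1 library counted again (lowest chi-square per degree of freedom 5.4). Coding lengths and sequences came from GENCODE vM21 and promoters from RefSeq.

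Members and gene lists were chosen with earlier results of these data known. Named genes were the tested members outside the core, the 5 largest and 5 smallest fold changes of each subunit, 17 fixed members, any core member called against the majority and up to 3 genes of each other list with the smallest p; Rps26, Eif4ebp1, Larp1, Tsc2, Npm1, Eef1a1, Eef2, Rpl4, Rpl12, Rpl23a, Rpl24, Rpl41 and the uncalled core genes were added after their values were seen. Some genes in these groups are not reported here. Alternatives were RLE or library-size scaling, TMM without ribosomal protein genes, other filters, protein-coding genes alone, DESeq2 1.42.0, limma 3.58.1 voom, limma on log2 FPKM plus 1 or 0.1, an offset for exon length, a replicate block and leaving out libraries. On simulated counts of 14114 genes with 200 changed for this comparison, 76% were recovered at a log2 change of 1 and 20% at 0.5, with 4 false calls. The changed genes were drawn at random among expressed genes and were far fewer than the 5105 called in the data. The recovered shares therefore do not give the power for the core genes.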

Additional observations from a re-analysis of the deposited data

Results flagged for a closer look

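For Rpl22l1, control 1 stood apart from the other controls: it read 76.6 CPM where the other 4 read 65.2 to 67.6 CPM, a gap of 0.788 of the group's range. It still lay below all 5 fibrosis libraries. Of 94 groups checked this way for an outlying library, about 5% would be picked out by chance.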

How the results depend on the processing

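The number of members called higher (71) stayed within 62 to 73 under every alternative, and it was 63 to 73 when single libraries were left out. The number called lower was 1, and it was 2 with library size as the only scaling, with the offset for exon length and with voom, 3 without both fibrosis 4 and 5, and 1 to 1 when single libraries were left out. All genes called (5105) ranged from 4135 to 5841, and from 4135 to 5496 when single libraries were left out. Scaling by library size alone shifted the median gene by -0.11. The labels tie the replicate numbers to no shared animal or batch, and the numbers were not taken as pairs, although the data do not settle this: deviations of same-numbered libraries correlated at -0.25 to 0.42, and 6 of 10 correlated best with their own number. With the number as a block 72 members were called higher and 1 lower, while the ratios of Rps27l to Rps27 (-1.52), Rpl7l1 to Rpl7 (-0.70) and Rpl36al to Rpl36a (-0.82) had an adjusted p of 0.104, since the smallest p that 5 pairs allow is 0.0625. The ratio of Rpl36al was -0.62 without fibrosis 4 and 5. When single libraries were left out the ratio ranged from -0.97 to -0.58 for Rpl36al, from -1.61 to -1.44 for Rps27l, from -0.79 to -0.63 for Rpl7l1, from -0.71 to -0.35 for Rps27rt and from -0.01 to 0.06 for Rpl22l1. Of 62 named genes tested, 44 had the same call in every alternative, and of 1426 alternative values 71 lost a call and 12 gained one. Depth limits Rpl39l, Rpl3l and Rpl10l, which had too few counts to test. Beyond the block, the cause of each change was not tested.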
